A study of Mus musculus with 6 samples.

Results

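Sialyltransferases and other glycosyltransferases that build and cap surface sugar chains were described in T cells sorted from the epithelium of the mouse small intestine. The members were all protein-coding genes whose symbol begins with 1 of 13 family names (St3gal, St6gal, St6galnac, St8sia, Galnt, Gcnt, B3gnt, B4galt, B3galt, B4galnt, Fut, C1galt and Mgat) followed by a digit. The rule took 89 of the 55487 gene models in the count table, with 88 symbols, because St6galnac2 had a second gene model. Of the 89, 17 had no count in any library, 19 had too few counts to be tested and 53 were tested.

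Live lymphocytes of wild-type C57BL/6J mice that carried both CD3ε and CD45 were sorted into B220+ cells, which the labels call X cells, and B220- cells, which they call T cells, and 3 bulk RNA libraries were made of each. No source used here gives the age of the mice or says that libraries came from separate mice, so p-values measure the spread between libraries, which may be technical. The RXR agonist of the series title is on no library's label. Library totals lay between 11810859 and 39591312 counts in B220+ and between 11320363 and 18773165 counts in B220- libraries, and B220+ replicate 2 was the deepest. Levels are given as counts scaled to library size (CPM). The T cell gene Cd3e averaged 1361 ± 56.4 CPM in B220+ cells, against 1214 ± 13.7 CPM in B220- cells (SD, n = 3 each). Itgae, an integrin chain that retains lymphocytes in the epithelium, averaged 2633 ± 141 CPM in B220+ cells, against 2567 ± 103 CPM in B220- cells.

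Glycosyltransferases act in sequence along the secretory pathway: GALNT enzymes start O-linked chains on serine and threonine, C1GALT1 and GCNT1 form and branch their cores, MGAT enzymes branch N-linked chains, B4GALT and B3GNT enzymes lengthen the branches, and sialyltransferases and fucosyltransferases cap them. In T cells these caps affect binding by lectins such as galectins, selectins and Siglecs. The sort marker itself belongs to this field, since the B220 epitope is carried by large, heavily glycosylated isoforms of CD45. Transcript levels do not report the glycans on the cells.

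Of the 53 tested members, 14 differed between the groups by edgeR's quasi-likelihood test at a Benjamini-Hochberg adjusted p under 0.05 over all genes, 7 higher and 7 lower in B220+ cells. That is 26.4% of the tested members, beside 11.1% of all 14722 genes tested (5.58% higher and 5.56% lower). St8sia6 passed the low-count filter through the B220- libraries alone and had to differ, and of the other 52 tested members 13 were called (25%). Among those 13, St6gal1 and B4galt2 did not reach the filter's 0.626 CPM in every library of their lower group. Both entered the test through their higher group, so their calls are not independent of the filter. The median log2 fold change was -0.0060 over the tested members and -0.0074 over all genes. In 24 members (45.3%) the B220+ and B220- libraries did not overlap, 12 in each direction, which was so for 28.1% of all tested genes. The decreases held the largest changes: St8sia6, St8sia1 and St6gal1 were the 3 called members that differed at least 8-fold, while among those called higher only B4galt2 passed 2-fold. Of the 7 called lower, 6 kept the call when each library was left out in turn, and of the 7 called higher 1 did (Fut8). The 6 include St8sia6, which had to differ, and St6gal1, whose call is not independent of the filter.

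**Figure D1:**
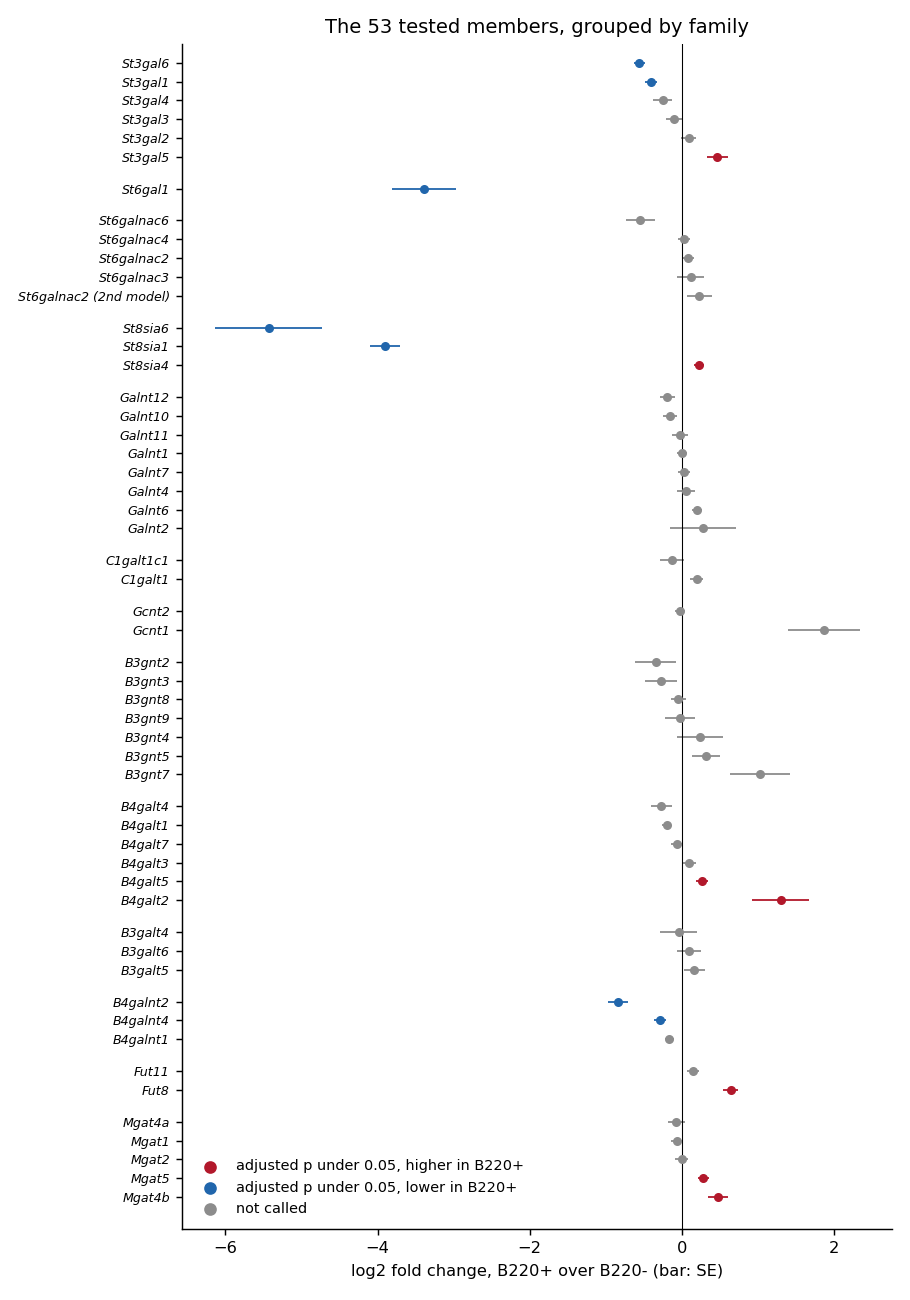
Log2 fold change (B220+ over B220-, x axis) of the 53 tested members, 1 row each, grouped by family, with the standard error as a bar. Blue marks the 7 members called lower in B220+ cells, red the 7 called higher and grey those not called; St8sia6, St8sia1 and St6gal1 lie far to the left, and Gcnt1 at 1.87 is the grey point furthest to the right.

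The members that add sialic acid to sialic acid (the ST8SIA family) differed in direction, with large decreases and 1 small increase. St8sia1, which makes the ganglioside GD3, had 1.44, 1.74 and 2.83 CPM in the 3 B220+ libraries, against 33.2, 25.3 and 29.8 CPM in the 3 B220- libraries. Every B220+ library was below every B220- library, and the log2 fold change was -3.90 (SE 0.20, edgeR adjusted p = 4.18e-07), 14.9-fold lower. St8sia1 (ENSMUSG00000030283) lies on the minus strand of mm10 chromosome 6, from 142821545 to 142964452. St8sia6, which extends sialic acid on O-linked chains, had 0, 0.0252 and 0.0707 CPM in B220+ libraries, against 1.94, 0.907 and 2.01 CPM in B220- libraries. These values rest on 2 counts in all in B220+ cells, against 75 in B220- cells, and after correction for depth B220- cells exceeded B220+ cells 51.7-fold (95% exact binomial interval 13.8 to 434). Such intervals cover counting error only. The fit gave a log2 fold change of -5.43 (SE 0.71) at an adjusted p of 3.15e-04. St8sia4, one of the enzymes that make polysialic acid, had 272, 282 and 274 CPM in B220+ libraries, against 238, 244 and 228 CPM in B220- libraries. All 3 B220+ libraries were higher, but the difference was small (log2 fold change 0.22, SE 0.063, edgeR adjusted p = 0.0394) and the call was lost whichever library was omitted (adjusted p 0.0563 to 0.166). St8sia4 (ENSMUSG00000040710) lies on the minus strand of chromosome 1, from 95587682 to 95667571.

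The 250 bases before the RefSeq start of St8sia1 (chr6:142964453-142964702, minus strand, GRCm38.p6) and of St8sia4 (chr1:95667595-95667844, minus strand, GRCm38.p6) are shown because these genes of a single family differed in direction. The difference of St8sia4 was small and its call was lost whichever library was omitted.
St8sia1: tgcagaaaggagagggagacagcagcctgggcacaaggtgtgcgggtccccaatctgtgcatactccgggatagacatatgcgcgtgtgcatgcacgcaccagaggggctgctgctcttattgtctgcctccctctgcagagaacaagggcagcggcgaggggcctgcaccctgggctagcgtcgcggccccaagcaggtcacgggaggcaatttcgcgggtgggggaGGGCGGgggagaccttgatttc
St8sia4: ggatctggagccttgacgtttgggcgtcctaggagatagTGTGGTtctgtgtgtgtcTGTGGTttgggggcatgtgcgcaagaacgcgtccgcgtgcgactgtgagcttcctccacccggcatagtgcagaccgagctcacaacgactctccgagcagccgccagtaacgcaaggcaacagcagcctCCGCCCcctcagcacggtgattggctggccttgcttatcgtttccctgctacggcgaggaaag
Both run 5′ to 3′, and capitals mark matches on either strand to a RUNX motif (TGTGGT) or a GC box (GGGCGG). A TCF/LEF motif (CTTTGA) and a T-box half-site (GGTGTGA) were also searched on both strands, and no match overlapped another. St8sia1 held 1 GC box, and St8sia4 held 2 RUNX motifs and 1 GC box, read on the other strand as CCGCCC. Of 32851 such windows in the RefSeq table, 14.0% held the RUNX motif, 32.7% the GC box, 13.8% the TCF/LEF motif and 3.3% the T-box half-site. A match is a run of letters and not a known binding site.

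**Figure D2:**
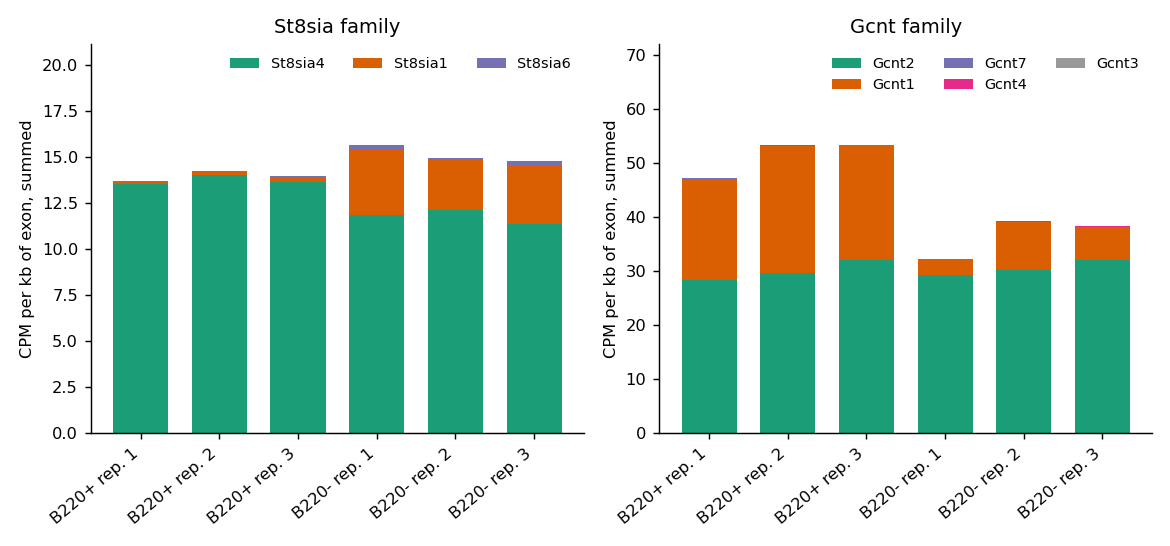
CPM per kilobase of exon summed over the detected members of the St8sia family (left) and the Gcnt family (right), 1 bar per library, with colours for the members. St8sia1 takes 18.1% to 22.7% of the St8sia sum in B220- libraries and at most 2.17% in B220+ libraries; Gcnt1 takes 39.4% to 44.1% of the Gcnt sum in B220+ and 8.26% to 22.5% in B220- libraries.

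Per exon length, where genes can be set side by side, St8sia4 made up a mean of 98.4% of the St8sia family's summed level in B220+ libraries and 77.8% in B220- libraries, and St8sia1 1.54% and 20.8%. The family's sum itself was 13.9 ± 0.268 CPM per kilobase in B220+ cells, against 15.1 ± 0.459 in B220- cells (SD, n = 3 each). St8sia2, St8sia3 and St8sia5 had no count in any library.

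Of the sialyltransferases outside the ST8SIA family, St6gal1, St3gal1 and St3gal6 were called lower and St3gal5, given with the glycolipid enzymes, was called higher. St6gal1, the main enzyme that puts sialic acid on the galactose of N-linked chains in the linkage bound by the B cell lectin CD22, had 0.0848, 0.781 and 0.637 CPM in B220+ libraries, against 5.93, 4.59 and 7.96 CPM in B220- libraries. The groups were far apart at a low level (41 and 282 counts in all; log2 fold change -3.39, SE 0.42, edgeR adjusted p = 4.07e-04). St6gal1 (ENSMUSG00000022885, chromosome 16, 23224740 to 23360350, plus strand) overlaps BC106179 on the opposite strand, which had 11.8% of its counts. Its relative St6gal2 had no count. St3gal1, which caps core 1 O-linked chains and is known in mice for its role in CD8 T cell survival, had 98.5, 102 and 98.2 CPM in B220+ libraries, against 144, 132 and 121 CPM in B220- libraries (log2 fold change -0.41, SE 0.075, edgeR adjusted p = 0.00322). St3gal6, which caps lactosamine chains including those of selectin ligands, had 62.1, 61.7 and 64.3 CPM in B220+ libraries, against 98.9, 84.9 and 93.6 CPM in B220- libraries. It was 1.48-fold lower (SE of the log2 fold change 0.076, edgeR adjusted p = 3.82e-04) with no overlap, and the gene on the opposite strand, Dcbld2, held 22.7% of its counts and did not pass (log2 fold change 0.10, edgeR adjusted p = 0.685). St3gal4, which acts on the same chains, averaged 22.7 ± 0.732 CPM in B220+ cells, against 27.0 ± 5.37 CPM in B220- cells (SD, n = 3 each; edgeR adjusted p = 0.268). St3gal3 and St3gal2 differed by -0.11 and 0.09 on the log2 scale (edgeR adjusted p = 0.625 and 0.671). Summed per exon length, the 6 St3gal genes reached 53.5 to 54.9 CPM per kilobase in B220+ and 61.6 to 67.7 in B220- libraries.

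The enzymes that put sialic acid on the GalNAc of O-linked chains and on gangliosides gave no call by edgeR or DESeq2 among 5 tested gene models of 7, and 1 had an unadjusted p under 0.05. Over all genes edgeR called 11.1%. The most abundant, St6galnac2, averaged 92.7 ± 6.29 CPM in B220+ cells, against 87.7 ± 6.20 CPM in B220- cells, and St6galnac4 averaged 50.5 ± 2.05 and 49.6 ± 4.83 CPM (SD, n = 3 each; edgeR adjusted p = 0.618 and 0.906). St6galnac6, of the ganglioside branch, had 5.34, 4.46 and 3.75 CPM in B220+ libraries, against 6.84, 6.12 and 6.82 CPM in B220- libraries. Its groups did not overlap, and its edgeR adjusted p was 0.0903. St6galnac1, which makes the sialyl-Tn antigen, had 0 counts in B220+ cells, against 13 in B220- cells. At equal depth, a floor of 3 counts over the B220+ group would make it 5.97-fold lower. That value leaves out the counting error of the 13 counts. It was too low for the test. With no filter on low counts, under which 8.41% of all genes were called, its edgeR adjusted p was 0.0280.

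Members that act one after another on glycolipids differed in direction along the path, a grouping chosen after the values were seen. Ugcg, outside the families by name and the first enzyme of the path, had 178, 206 and 191 CPM in B220+ libraries, against 132, 150 and 139 CPM in B220- libraries (log2 fold change 0.45, SE 0.076, edgeR adjusted p = 0.00183). B4galt5, which makes lactosylceramide from its product, had 150, 152 and 130 CPM in B220+ libraries, against 118, 129 and 113 CPM in B220- libraries (log2 fold change 0.27, SE 0.080, edgeR adjusted p = 0.0499). St3gal5, which makes the ganglioside GM3 from lactosylceramide, had 10.4, 12.1 and 11.5 CPM in B220+ libraries, against 8.57, 8.10 and 8.13 CPM in B220- libraries (log2 fold change 0.46, SE 0.14, edgeR adjusted p = 0.0476). All 3 genes were higher in every B220+ library than in any B220- library, but the margins of B4galt5 and St3gal5 were thin. B4galt5 kept the call only without B220+ replicate 3 (edgeR adjusted p = 0.0263) or B220- replicate 2 (0.0312) and reached 0.204 without B220- replicate 3. St3gal5 kept it in no such fit (0.0609 to 0.209), nor with DESeq2 (0.1001). The next enzyme, St8sia1, which turns GM3 into GD3, was 14.9-fold lower, as given above. B4galnt1, which makes GM2 and GD2, had 378, 383 and 395 CPM in B220+ libraries, against 433, 429 and 435 CPM in B220- libraries. These groups did not overlap, and the log2 fold change was -0.17 (SE 0.063, adjusted p = 0.121 by edgeR). The opposite-strand gene Slc26a10, with 46.3% of its counts, was called higher (log2 fold change 0.26, edgeR adjusted p = 0.0412). B3galt4, the GM1 synthase, averaged 4.27 ± 1.06 CPM in B220+ cells, against 4.46 ± 1.04 CPM in B220- cells (SD, n = 3 each).

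**Figure D3:**
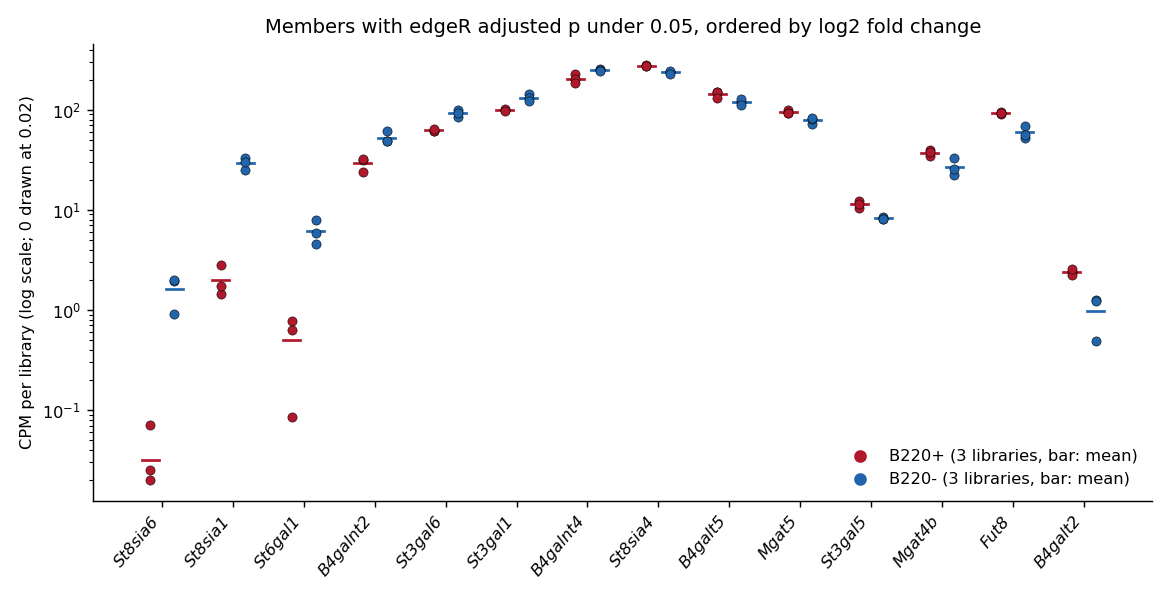
CPM in each library (y axis, log scale, a value of 0 drawn at 0.02) for the 14 members called by edgeR, ordered by log2 fold change, with B220+ libraries in red left of B220- libraries in blue and bars at the means. In each of the 14 the 3 red and 3 blue points do not overlap, with gaps of several fold in St8sia6, St8sia1 and St6gal1 and narrow gaps in the others.

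None of the 8 Galnt and 2 C1galt genes tested, for the start and core 1 of O-linked chains, was called by edgeR. Over all genes 11.1% were called, so a count of 0 among so few genes is near that share. The branching enzyme Gcnt1 had the largest increase of any tested member and was not called either. Of the 8 tested Galnt genes, which attach the first GalNAc, 0 were called by edgeR or DESeq2 and 1 had an unadjusted p under 0.05. Galnt6, the most abundant, averaged 319 ± 12.7 CPM in B220+ cells, against 279 ± 14.4 CPM in B220- cells (SD, n = 3 each), with no overlap and an edgeR adjusted p of 0.0897. With the replicate block, which called 17.5% of all genes, it was 0.0203. Galnt1 averaged 168 ± 6.66 and 167 ± 10.6 CPM, Galnt10 53.3 ± 5.37 and 59.4 ± 5.07 CPM, Galnt7 57.8 ± 3.32 and 56.6 ± 3.91 CPM, and Galnt12 26.3 ± 1.898 and 29.9 ± 2.28 CPM in B220+ and B220- cells (SD, n = 3 each; edgeR adjusted p 0.273 to 0.989). Galnt9 did not pass the filter, with 3 counts in all in B220+ cells, against 50 in B220- cells. At equal depth the ratio of B220- over B220+ cells was 23.0 (95% exact binomial interval 7.42 to 115), and the edgeR adjusted p with no filter was 6.65e-06. The counts of Galnt2 (57 in B220+ cells, against 32 in B220- cells) are uncertain, because 3854 of its 4282 exonic bases are also assigned to Galnt2l, a model with no count in any library. C1galt1, which makes core 1, averaged 73.5 ± 5.33 CPM in B220+ cells, against 64.0 ± 6.55 CPM in B220- cells (edgeR adjusted p = 0.214, or 0.0493 with the replicate block), and its chaperone C1galt1c1 averaged 10.4 ± 1.18 and 11.3 ± 2.13 CPM (SD, n = 3 each; edgeR adjusted p = 0.713).

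Gcnt1, which adds the core 2 branch and is known to be induced in activated T cells, had 107, 135 and 121 CPM in B220+ libraries, against 15.4, 50.8 and 33.9 CPM in B220- libraries. The lowest B220+ library had more than the highest B220- library, and the B220- libraries differed widely among themselves. The log2 fold change was 1.87 (SE 0.47), with an edgeR adjusted p of 0.0998. The adjusted p was 0.00991 without B220- replicate 1 and 0.00193 with DESeq2, and 0.125 with the replicate block. Without B220+ replicate 2 the edgeR adjusted p was 0.260. Only 1 of the 6 fits that omit a library called Gcnt1. Gcnt1 (ENSMUSG00000038843) lies on chromosome 19 from 17326141 to 17372844, minus strand. Gcnt2, which makes the branches of I antigen, averaged 212 ± 13.4 CPM in B220+ cells, against 215 ± 10.02 CPM in B220- cells (SD, n = 3 each; edgeR adjusted p = 0.891), while the family's summed level per exon length was 51.3 ± 3.55 CPM per kilobase in B220+ cells, against 36.6 ± 3.80 in B220- cells. B3gnt7, which lengthens lactosamine chains, showed the same ranking of libraries as Gcnt1, with 23.1, 31.3 and 25.7 CPM in B220+ libraries, against 7.49, 20.5 and 11.5 CPM in B220- libraries. The ratio of the groups was 2.04, at an edgeR adjusted p of 0.219. Omitting B220- replicate 2 gave 4.35e-04 and the replicate block 0.00399. Omitting B220+ replicate 2 gave 0.418 and DESeq2 gave 0.142. Only 1 of the 6 fits that omit a library called B3gnt7. Of the 7 tested B3gnt genes, 0 were called by edgeR or DESeq2 and 1 had an unadjusted p under 0.05, beside 11.1% of all genes called by edgeR.

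**Figure D4:**
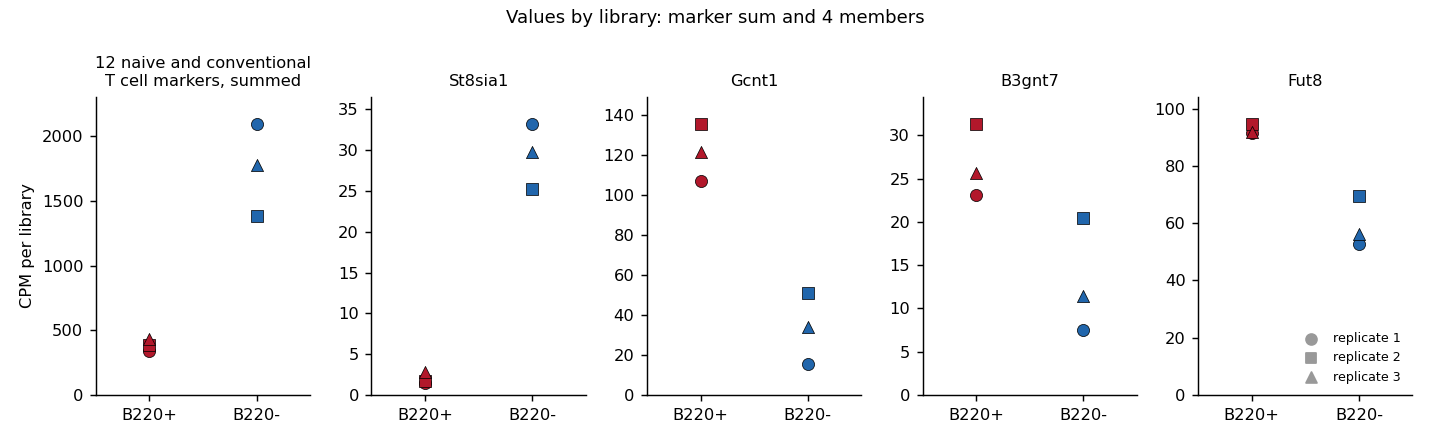
CPM in each library (y axis) of the summed naive and conventional T cell markers and of 4 members, with B220+ in red left of B220- in blue and a marker shape for each replicate number. In B220- libraries the marker sum and St8sia1 are highest in replicate 1 and lowest in replicate 2, and Gcnt1, B3gnt7 and Fut8 are lowest in replicate 1 and highest in replicate 2.

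Fut genes fucosylate chains and Mgat genes branch N-linked chains. Of 2 tested Fut and 5 tested Mgat genes, Fut8, Mgat5 and Mgat4b were called higher and 0 lower. Over all tested genes 5.58% were called higher and 5.56% lower. Fut8, which adds the core fucose, had 91.6, 94.8 and 92.0 CPM in B220+ libraries, against 52.8, 69.5 and 56.4 CPM in B220- libraries. It was 1.56-fold higher (log2 fold change 0.64, SE 0.094, edgeR adjusted p = 7.50e-04) with no overlap, and lies on chromosome 12 from 77238125 to 77476338, plus strand (ENSMUSG00000021065). Mgat5, whose branches bind galectins and are known in mice to restrain T cell receptor clustering, had 98.7, 93.8 and 93.6 CPM in B220+ libraries, against 72.7, 80.3 and 82.8 CPM in B220- libraries (log2 fold change 0.28, SE 0.073, edgeR adjusted p = 0.0261). Mgat4b, which adds another antenna, had 34.5, 39.6 and 38.1 CPM in B220+ libraries, against 22.5, 32.7 and 25.8 CPM in B220- libraries (log2 fold change 0.47, SE 0.13, edgeR adjusted p = 0.0310). Neither overlapped between groups, but both depended on single libraries. Mgat5 kept the call without B220- replicate 2 (edgeR adjusted p = 0.0418) or 3 (0.0476) and lost it in the other 4 such fits, up to 0.0876 without B220+ replicate 1. Mgat4b kept it without B220+ replicate 1 (0.0422) or B220- replicate 2 (0.00125) and lost it in the other 4, up to 0.142 without B220+ replicate 2. The enzymes earlier in the path did not pass: Mgat1 averaged 65.8 ± 2.85 CPM in B220+ cells, against 69.2 ± 2.42 CPM in B220- cells, and Mgat2 98.6 ± 9.48 and 98.8 ± 7.38 CPM (SD, n = 3 each; edgeR adjusted p = 0.634 and 0.978). Mgat4a, the sister of Mgat4b, differed by -0.07 on the log2 scale (edgeR adjusted p = 0.769).

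Among galactosyltransferases, B4galt1, the main lactosamine enzyme, had 136, 136 and 138 CPM in B220+ libraries, against 160, 157 and 156 CPM in B220- libraries. The groups were apart by more than their spread, with a log2 fold change of -0.20 (SE 0.062) and an edgeR adjusted p of 0.0527, or 0.0154 with the replicate block and 0.0494 with DESeq2. B4galt2, of the same activity, had 2.38, 2.24 and 2.55 CPM in B220+ libraries, against 0.485, 1.25 and 1.22 CPM in B220- libraries (log2 fold change 1.30, SE 0.37, edgeR adjusted p = 0.0401). That call held without B220- replicate 2 (0.0307) and was lost on omitting any other library (up to 0.127 without B220+ replicate 2) and with DESeq2 (0.0535). Of its 5031 exonic bases, 1417 are shared with Ccdc24. B4galt7, of the proteoglycan linker, averaged 53.5 ± 4.35 CPM in B220+ cells, against 55.8 ± 1.75 CPM in B220- cells, B4galt3 42.8 ± 3.51 and 40.5 ± 4.09 CPM, and B3galt5, which makes type 1 chains, 96.9 ± 19.98 and 86.2 ± 6.68 CPM (SD, n = 3 each; edgeR adjusted p 0.579 to 0.736). B4galt4 (8.99, 10.1 and 11.4 CPM in B220+, against 12.3, 12.01 and 12.5 CPM in B220- libraries), Fut11 and B3gnt5 did not overlap between groups and were not called (edgeR adjusted p 0.269 to 0.356). Reads from the opposite strand also bear on St3gal4, B4galt3 and St6galnac2, whose partners 4930581F22Rik, Ppox and Snhg16 had 150.6%, 204.8% and 41.5% of their counts and did not pass (edgeR adjusted p = 0.604, 0.564 and 0.236).

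Of the 3 tested genes of the family that adds terminal GalNAc, 2 were called lower by edgeR, beside 5.56% of all tested genes. Of these 2, only B4galnt2 kept the call whichever library was left out. B4galnt2 makes the Sda antigen, which in mice is carried by CD45 of cytotoxic T cells and is bound by the CT antibodies. It had 31.7, 32.4 and 24.0 CPM in B220+ libraries, against 48.6, 61.1 and 48.9 CPM in B220- libraries. The groups did not overlap and B4galnt2 was 1.79-fold lower (log2 fold change -0.84, SE 0.13, edgeR adjusted p = 0.00197). B4galnt2 (ENSMUSG00000013418) lies on chromosome 11 from 95865943 to 95914891, minus strand, and the opposite-strand gene Gm11534, with 30.8% of its counts over a 263-base exonic overlap, fell by 0.82 on the log2 scale (edgeR adjusted p = 0.00970). B4galnt4, which makes the LacdiNAc unit, had 230, 203 and 184 CPM in B220+ libraries, against 256, 250 and 246 CPM in B220- libraries (log2 fold change -0.29, SE 0.080, edgeR adjusted p = 0.0360). B4galnt4 kept the call only without B220+ replicate 1 (0.0125) and reached 0.153 without B220+ replicate 3. B4galnt3 had no count. Summed per exon length, the family stood at 182 ± 5.62 CPM per kilobase in B220+ and 221 ± 3.29 in B220- cells (SD, n = 3 each).

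**Figure D5:**
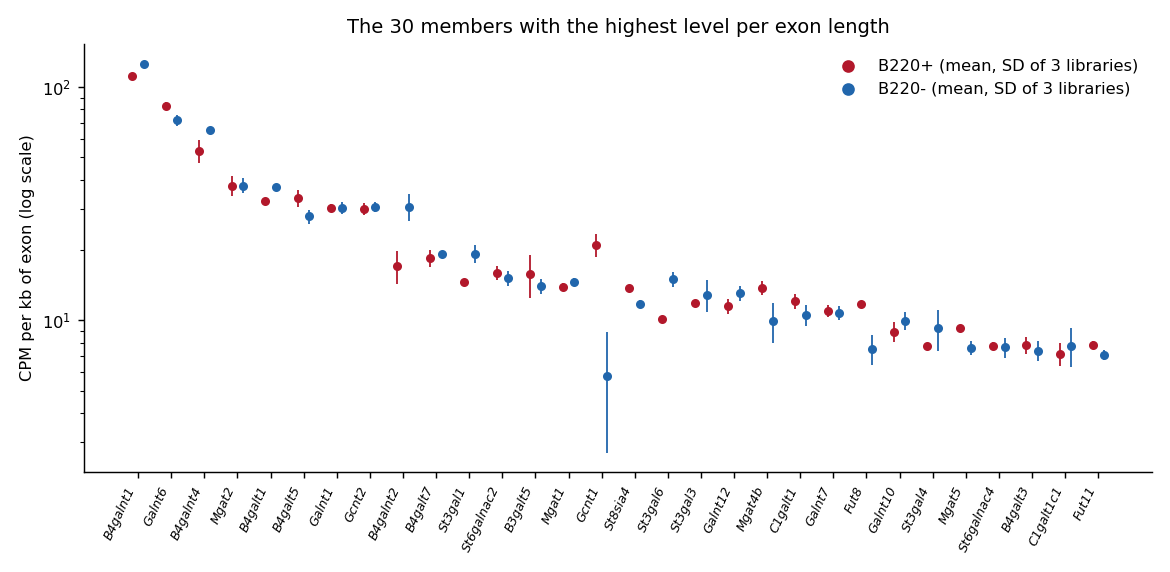
CPM per kilobase of exon (y axis, log scale) of the 30 members with the highest level, mean and SD of 3 libraries, with B220+ in red left of B220- in blue. B4galnt1, Galnt6 and B4galnt4 lead in both groups, and Gcnt1 shows the widest gap and the widest B220- bar.

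Per exon length the same 3 members led in both groups. B4galnt1 was highest with 112 ± 2.64 CPM per kilobase in B220+ and 125 ± 0.850 in B220- cells, followed by Galnt6 with 82.5 ± 3.28 and 72.0 ± 3.71, and B4galnt4 with 53.3 ± 5.96 and 65.03 ± 1.36 (SD, n = 3 each). These 3 were apart by more than their spread within each group. In B220+ cells Mgat2, B4galt5, B4galt1, Galnt1 and Gcnt2 came next, between 37.7 and 30.04 CPM per kilobase. In B220- cells the next were Mgat2, B4galt1, B4galnt2, Gcnt2, Galnt1 and B4galt5, between 37.8 and 27.9, and B4galnt2 at 30.7 ± 4.13, Gcnt2 at 30.6 ± 1.42 and Galnt1 at 30.3 ± 1.92 were closer than their SDs. Exonic length is the union of all annotated transcripts, so members with long rare transcripts are understated. The 17 members with no count were St8sia2, St8sia3, St8sia5, St6gal2, Galnt13, Galnt14, Galnt15, Galnt17, Galnt18, Galnt2l, B4galnt3, Fut1, Fut2, Fut9, Mgat4d, Mgat4f and Mgat5b. Fut2, which fucosylates the intestinal epithelium, was among them. Fut7, which completes selectin ligands, had 0 counts in B220+ cells, against 6 in B220- cells, all in replicate 3. Fut4, which has a similar activity, had 50 counts in B220+ cells, against 15 in B220- cells, and was too low for the test. At equal depth its ratio was 2.42 (95% exact binomial interval 1.34 to 4.64). That interval covers counting error only, and with no filter on low counts the edgeR adjusted p of Fut4 was 0.252.

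Other steps of glycan synthesis were counted on lists chosen by function. Over all tested genes 5.58% were called higher and 5.56% lower, with a median log2 fold change of -0.0074. In the list of CMP-sialic acid supply, 0 of 5 tested genes were called higher and 1 lower, with a median log2 fold change of -0.09. The gene was Cmah, which converts the sialic acid Neu5Ac to Neu5Gc, with 0.339, 0.277 and 1.27 CPM in B220+ libraries, against 8.35, 5.33 and 9.27 CPM in B220- libraries (log2 fold change -3.76, SE 0.50, edgeR adjusted p = 0.00162). Cmah did not reach the filter's 0.626 CPM in every B220+ library and entered the test through the B220- libraries. Gne, Nans and Cmas, which make and activate sialic acid, differed by -0.09, -0.03 and -0.22 on the log2 scale (edgeR adjusted p = 0.583, 0.890 and 0.227). Of 4 tested sialidase and sialate O-acetyl genes and 18 of fucose, galactose and hexosamine supply, 0 were called by edgeR or DESeq2, and 0 and 1 had an unadjusted p under 0.05. Of 27 genes of N-glycan assembly and trimming, 1 was called higher and 1 lower: Rpn1, of the oligosaccharyltransferase, was 1.71-fold higher (edgeR adjusted p = 4.46e-05), and Man2a1, a Golgi mannosidase, 1.32-fold lower (edgeR adjusted p = 0.00613). Of 8 tested sulfotransferases, Chst12 was higher (1.48-fold, edgeR adjusted p = 0.00356) and Chst2, which sulfates GlcNAc, was 5.16-fold lower (edgeR adjusted p = 0.00109). Of 19 tested glycosyltransferases outside the families 2 were called higher, Ugcg and Ggta1, which makes the α-Gal epitope (1.25-fold, edgeR adjusted p = 0.0125, but 0.0756 at most when 1 library was left out), and 1 lower, Xylt1, which starts proteoglycan chains (14 counts in B220+ cells, against 233 in B220- cells; edgeR adjusted p = 1.77e-05). Xylt1 passed the low-count filter through the B220- libraries alone, so it had to differ.

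Of 12 tested glycoproteins that carry such chains, 2 were called higher and 5 lower (median log2 fold change -0.20). Of all tested genes 5.58% were called higher and 5.56% lower (median -0.0074). Cd8a and Cd96 were 1.29-fold and 1.21-fold higher (edgeR adjusted p = 0.00779 and 0.0251), and the lower genes included Cd8b1 (8.94-fold, edgeR adjusted p = 0.00447), Thy1 (4.55-fold, 1.62e-04), Cd44 (1.83-fold, 0.00173) and Cd52 (1.46-fold, 0.0234). Cd96 and Cd52 lost the call without some libraries, with adjusted p up to 0.137 and 0.101. Without B220- replicate 3 no gene of this list was called higher, and the adjusted p of Cd8a was 0.0537. Ptprc, the CD45 gene, averaged 2188 ± 28.0 CPM in B220+ cells, against 2481 ± 90.3 CPM in B220- cells (SD, n = 3 each; edgeR adjusted p = 0.163). Of 11 tested glycan-binding receptors, 1 was higher, the galectin Lgals3 (1.83-fold, edgeR adjusted p = 0.00104), and 2 were lower, among them the galectin Lgals9 (1.22-fold, edgeR adjusted p = 0.0284). Omitting single libraries removed the call of Lgals9 in 3 of 6 cases (adjusted p up to 0.111).

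Markers of naive and conventional T cells also differed between the groups. Of 12 such markers 0 were called higher and 11 lower, beside 5.58% and 5.56% of all tested genes. Their sum lay between 340 and 432 CPM in B220+ and between 1382 and 2098 CPM in B220- libraries. Cd4 averaged 7.63 ± 0.839 CPM in B220+ cells, against 177 ± 46.8 CPM in B220- cells (SD, n = 3 each). In B220- replicates 1, 2 and 3 the marker sum was 2098, 1382 and 1777 CPM, beside 33.2, 25.3 and 29.8 CPM of St8sia1 and 15.4, 50.8 and 33.9 CPM of Gcnt1. Among the other members called lower, St3gal6 had the same order of B220- libraries as the marker sum. St8sia6, St6gal1, St3gal1, B4galnt2 and B4galnt4 did not. Among the members called higher, Fut8, Mgat4b and B4galt2 had the reverse of that order, and B4galt5, St8sia4, Mgat5 and St3gal5 did not. In bulk libraries, fewer cells that express a gene and less RNA of it per cell cannot be told apart, and the part of the cell mix in the results was not tested. Markers of B cells and plasma cells summed to 38.8 to 59.0 CPM in B220+ and 45.3 to 127 CPM in B220- libraries, mostly Cd79b and Jchain; 1 of 3 tested was called lower, Sdc1 (54 and 163 counts; kept in 3 of the 6 fits that omit a library, adjusted p up to 0.127, with 0 called in this list without B220+ replicate 1 or 2 or B220- replicate 3), Mzb1 was at 0, and the defining B cell genes Ms4a1 and Pax5 had 1 and 5 counts in B220+ cells, against 2 and 11 in B220- cells. Sdc1 too did not reach the filter's 0.626 CPM in every B220+ library and entered the test through the B220- libraries. Markers of absorptive epithelium summed to 328 to 370 CPM in B220+ and 297 to 363 CPM in B220- libraries with 0 of 13 tested called, mostly Cdh1 and Epcam (DESeq2 called 1 and 1 had an unadjusted p under 0.05). Epcam had 68.7, 81.0 and 76.3 CPM in B220+ libraries, against 19.99, 49.0 and 38.8 CPM in B220- libraries (edgeR adjusted p = 0.1697), the same order of B220- libraries as Gcnt1, while Vil1, of the brush border, averaged 2.52 CPM in B220+ cells, against 2.61 CPM in B220- cells. The part of Epcam-expressing cells in the values of Gcnt1 was not tested. Goblet and Paneth cell markers summed to 5.77 to 51.9 and 10.3 to 53.4 CPM (0 of 6 called by edgeR or DESeq2, 1 with an unadjusted p under 0.05), and macrophage and dendritic cell markers to 388 to 540 and 256 to 328 CPM, mostly Itgax, in B220+ and B220- libraries, with 1 of 6 called lower. That gene, Lyz2, passed the low-count filter through the B220- libraries alone and had to differ, and DESeq2 and the replicate block each called 1 gene of this list higher. Of 10 markers of intraepithelial T cells 1 was called higher (Cd8a) and 1 lower (Cd247).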

How the data were processed

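Gene-level counts, unnormalized, were deposited for 3 B220+ and 3 B220- libraries made with a directional kit, per the labels' protocols. The submitters' processing notes name build mm10 and, with no options or order, HISAT2 2.1.0, featureCounts 1.6.3, Trimmomatic 0.38, FastQC 0.11.7 and SAMtools 1.9. Models of miRNA inside introns of genes with at least 1000 counts had a count in 49.5% of 313 cases on the host's strand and 52.9% of 85 on the opposite strand, so reads of overlapping genes on opposite strands cannot be told apart. Exonic lengths came from GENCODE M21, which has the coordinates of 98.73% of the gene models. RefSeq promoters matched 64 of 88 symbols.

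Counts were tested with edgeR 4.0.16 in R 4.3.3 (TMM scaling, filterByExpr with minimum count 10, robust quasi-likelihood fit, group as the only term), and p-values were Benjamini-Hochberg adjusted over 14722 genes; DESeq2 1.42.0 was an alternative. The test was run on data simulated with its own dispersion estimates, with independent libraries and planted changes. Such data hold no pairing of libraries, so the check does not bear on the calls reported here. Fold changes are B220+ over B220-. Each SE is the absolute log2 fold change divided by the square root of the quasi-likelihood F statistic. The p-values also depend on the degrees of freedom, so they cannot be read from the SE alone. Deviations from group means correlated at 0.295, 0.246 and 0.272 between same-numbered libraries and at -0.203 to -0.0675 between others. Such deviations cancel within a group, so positive values for some pairs force negative values for others, which add no support. From the same-numbered values, and not from the labels, the replicate numbers were taken to pair libraries. The main fit leaves this pairing out, and the replicate block was run as an alternative. Column names of the deposited counts carry other numbers, which do not state a pairing. The fit with the replicate block is quoted beside members whose call it changes; its counts for the lists stand with the alternatives. Libraries of 1 group were no duplicates of each other (chi-square per degree of freedom 7.37 to 16.2).

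The members and lists were chosen with earlier results of these data known. Values are given for called members, members whose call differs in an alternative, the 20 uncalled members with the highest level per length, and called list genes; others were named after their values were seen. Some list genes are not reported here.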

Additional observations from a re-analysis of the deposited data

How the results depend on the processing

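With the replicate number as a block, 2569 genes were called, against 1639 without it, and the members called were 10 higher and 8 lower. The calls added by the block were Galnt6, B3gnt7 and C1galt1 (higher) and B4galt1 (lower), and it removed none of the 14. Leaving out 1 library at a time gave 970 to 1789 genes called, with 970 without B220+ replicate 2 and 1029 without B220- replicate 3. The members called higher then numbered 1 to 6 (2, 1 and 2 without B220+ replicates 1, 2 and 3, and 2, 6 and 2 without B220- replicates 1, 2 and 3), and the members called lower 6 to 8. Relative log expression scaling gave 7 higher and 7 lower, DESeq2 6 and 9 (1762 of 17611 genes called in all), and no filter on low counts 6 and 9 (2211 of 26276). The block put the genes called lower at 2 in CMP-sialic acid supply, N-glycan assembly and sulfotransferases, at 3 in the glycosyltransferases outside the families, at 6 in carriers and at 1 in goblet and Paneth markers; it gave 2 higher and 3 lower in glycan-binding receptors, 1 higher in macrophage and dendritic cell markers and 2 higher in intraepithelial T cell markers. Of 530 member values under an alternative, 24 changed sign, 0 of them among called members. All 24 came from leaving out 1 library, in members whose log2 fold change was near 0, with these ranges over the 6 fits: Galnt1 (-0.026 to 0.059), Gcnt2 (-0.071 to 0.016), B4galt7 (-0.100 to 0.0090), Mgat4a (-0.18 to 0.021), St3gal3 (-0.18 to 0.018), Galnt7 (-0.021 to 0.080), Galnt11 (-0.076 to 0.018), Mgat2 (-0.084 to 0.056), St6galnac3 (-0.056 to 0.24), B3gnt8 (-0.13 to 0.037), B3galt4 (-0.19 to 0.17), B3gnt9 (-0.15 to 0.11), B3galt5 (-0.0089 to 0.29), St6galnac4 (-0.024 to 0.11), Galnt4 (-0.022 to 0.094). The cause was not tested. St8sia6, Galnt9 and St6galnac1 rest on few counts, so depth limits the size of their differences.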
